A study of Mus musculus with 18 samples.

Results

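The myeloid growth factor receptors were followed as 8 genes, Csf1r, Csf2ra, Csf2rb, Csf2rb2, Csf3r, Il3ra, Il6ra and Il6st, chosen by symbol and without use of their values. All 8 were present among the 19780 genes of the table for LSK and among the 18428 genes of the table for CMP. LSK are Lin-Sca-1+c-Kit+ bone marrow cells, which hold haematopoietic stem cells and multipotent progenitors, and CMP are common myeloid progenitors, a later stage. RNA was sequenced from sorted cells of female mice that carry no transgene. F1-P were prediseased NZB/W F1 mice (NZBW/F1, the hybrid of NZB and NZW mice that develops lupus spontaneously) of 12 weeks, and F1-L were NZBW/F1 mice of 28 to 36 weeks with proteinuria. B6-Y and B6-O were C57BL/6 mice of 12 weeks and of 28 to 36 weeks, which served as controls. LSK were measured in 3 samples of each of the 4 groups and CMP in 3 samples of F1-P and 3 of F1-L, and no C57BL/6 CMP were used here. Disease stage cannot be told apart from age within NZBW/F1, so the C57BL/6 groups give the age difference without disease. Strain cannot be told apart from the effect of mapping NZB and NZW reads to the C57BL/6 genome. The labels do not say whether the 3 samples of a group were separate mice or pools, and the study's description of the CMP data gives a number of its own to each replicate, which may mean pooled mice, so the tests measure the spread between these samples, which may be technical.

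Haematopoietic growth factors act through receptors that decide which progenitors survive, divide and mature. Most of the receptors here have no enzyme activity and signal through bound JAK kinases and STAT factors, while CSF1R is itself a tyrosine kinase. CSF1R binds M-CSF and IL-34 and is central to monocytes and macrophages. CSF3R binds G-CSF, the main driver of neutrophil production. CSF2RA and IL3RA are the alpha chains that bind GM-CSF and IL-3, and each needs a beta chain to signal. CSF2RB is the common beta chain shared by the receptors for GM-CSF, IL-3 and IL-5, and the mouse has a second beta chain, CSF2RB2, which serves IL-3 alone. IL6RA binds IL-6, and IL6ST (gp130) is the signalling chain that IL-6 shares with other cytokines.

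Csf2rb and Csf2rb2 are neighbours and near copies, so their sequences decide how well reads can be assigned to each. In GRCm38, Csf2rb (ENSMUSG00000071713) lies at chr15:78325752-78353847 on the plus strand and Csf2rb2 (ENSMUSG00000071714) at chr15:78282507-78305721 on the minus strand, with 20268 bases between them. Their coding sequences of 2691 and 2637 bases shared 95.2% of 2631 aligned bases. Of 1497 windows of 75 bases within 1 exon, 22.4% were identical in both genes and 58.4% differed at 2 bases or fewer. The next lines give, 5′ to 3′ along the coding strand and in capitals where the genes differ, the 2 copies of an identical window in exon 7 (Csf2rb chr15:78341391-78341465, Csf2rb2 chr15:78291844-78291918), of a window with the median of 2 differences in exon 14 (Csf2rb chr15:78348423-78348497, Csf2rb2 chr15:78284951-78285025), and of the window with the most, 14, in exon 4 (Csf2rb chr15:78338905-78338979, Csf2rb2 chr15:78294352-78294426).
Csf2rb exon 7: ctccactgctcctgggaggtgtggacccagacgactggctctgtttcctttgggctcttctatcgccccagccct
Csf2rb2 exon 7: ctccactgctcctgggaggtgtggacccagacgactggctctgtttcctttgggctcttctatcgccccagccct
Csf2rb exon 14: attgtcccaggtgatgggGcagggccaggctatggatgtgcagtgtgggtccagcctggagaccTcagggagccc
Csf2rb2 exon 14: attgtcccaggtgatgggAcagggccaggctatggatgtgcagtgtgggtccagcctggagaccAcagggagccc
Csf2rb exon 4: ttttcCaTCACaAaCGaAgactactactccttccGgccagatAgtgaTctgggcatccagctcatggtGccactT
Csf2rb2 exon 4: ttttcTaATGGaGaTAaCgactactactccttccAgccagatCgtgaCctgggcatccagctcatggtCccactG
Over whole transcripts, 518 stretches of 75 bases were shared by the genes, 7.15% of those in Csf2rb and 10.6% of those in Csf2rb2. The values of each gene alone are therefore uncertain where reads fall in shared stretches, and the sum of the pair is given beside them.

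Promoter sequence was available from RefSeq (GRCm38.p6) for 6 members, Csf2ra, Csf2rb2, Csf3r, Il3ra, Il6ra and Il6st, with no entry for Csf1r and Csf2rb. In the 250 bases before to 50 after the start, on both strands, GAGGAA (a core bound by PU.1 and other ETS factors) was found in 4 of 6 members against 28.3% of 32851 promoters, TTGCNNAA (C/EBP) in 1 of 6 against 10.8%, and TTCNNNGAA (STAT) in 1 of 6 against 8.3%. No 2 of these motifs overlapped in a member. One window is shown for each motif and for the G-CSF and GM-CSF receptors, with each match of the motif in capitals (2 in a row in Csf2ra): Csf2ra chr19:61228415-61228444 (minus strand), Csf3r chr4:126024561-126024590 (plus), Il3ra chr14:14346350-14346379 (plus) and Csf2rb2 chr15:78305717-78305746 (minus).
Csf2ra, GAGGAA: caacctgcagatGAGGAAGAGGAAgcggga
Csf3r, GAGGAA: cctccttcctgaGAGGAAggggctgtctat
Il3ra, TTGCNNAA: atctcaggaagTTGCTCAAtctcgggacca
Csf2rb2, TTCNNNGAA: gtgtccacaaTTCTGAGAAgcaagcaaagc
A match to these letters is a description of the sequence, and binding was not measured.

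The other members lie apart from each other. Csf1r was at chr18:61100598-61132149, Csf2ra at chr19:61223957-61228429, Csf3r at chr4:126024550-126044440, Il3ra at chr14:14346275-14356011, Il6ra at chr3:89864059-89913196 and Il6st at chr13:112464070-112510086. Csf1r shared 13.9% of its stretches of 75 bases with the overlapping gene Hmgxb3, Csf3r shared 3.13% and Il6ra 1.97% with other genes, and Csf2ra, Il3ra and Il6st shared 0. The values are CPM, read counts relative to a scaled library size, where the LSK samples held 23772252 to 28493747 reads and the CMP samples 20001328 to 24761060. Behind single values stood 71 reads for Csf2rb2 at the lowest and 7538 reads for Csf3r at the highest.

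The gates were checked in the RNA. Both populations were sorted without CD11b, Gr-1, Ter119, B220 and CD16/32. Kit was at 257 to 657 CPM in LSK and 416 to 668 CPM in CMP. Ly6a, which encodes Sca-1, was at 293 to 879 CPM in NZBW/F1 LSK, 35.5 to 113 CPM in C57BL/6 LSK and 1.14 to 6.7 CPM in CMP, although the methods list Sca-1+ for the CMP gate as well. RNA of cells outside the gates was also present, and fewer cells of a type and less RNA per cell cannot be told apart. The summed level of 11 mature neutrophil genes ranged from 300 to 1275 CPM in LSK of F1-P, 1979 to 12331 in F1-L, 485 to 5429 in B6-Y and 830 to 10700 in B6-O, and from 314 to 8406 CPM in CMP of F1-P and 63.9 to 430 in F1-L. The 6 plasma cell genes summed to 14296 to 36851 CPM in LSK of F1-P and 9453 to 12532 in F1-L. They summed to 242 to 2464 CPM in C57BL/6 LSK and at most 285 in CMP. The 12 monocyte and macrophage genes summed to 604 to 1297 CPM in LSK of F1-P and 614 to 969 in F1-L. They summed to 100 to 350 CPM in C57BL/6 LSK and 149 to 587 in CMP. This sum does not stand for each gene of the list. In F1-P against B6-Y, 5 of the 12 were higher and 7 lower, with a median log2 difference of -0.28. In F1-L against F1-P, 9 were higher and 3 lower, with a median of 1.07. None of these marker genes was at 0 throughout a group.

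Csf3r, the G-CSF receptor gene, was at 71.9, 80.9 and 114 CPM in LSK of F1-P, 302, 166 and 132 in F1-L, 159, 238 and 177 in B6-Y, and 218, 207 and 238 in B6-O. Only F1-P lay below the other groups, with no overlap. In CMP it was at 44.8, 186 and 281 CPM in F1-P and at 92.2, 36.5 and 80.7 in F1-L, so that 1 F1-P sample lay among the F1-L samples.

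Csf1r, the M-CSF receptor gene, was at 19.6, 10.1 and 33.8 CPM in LSK of F1-P, 96.4, 24.8 and 104 in F1-L, 58.1, 51.9 and 33.8 in B6-Y, and 19.8, 14.3 and 41.4 in B6-O. One F1-L sample was as low as the F1-P samples, and the others were the highest of all LSK. In CMP it was at 48.4, 104 and 173 CPM in F1-P and 86.3, 32.9 and 101 in F1-L, and the groups overlapped.

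Csf2ra, the alpha chain of the GM-CSF receptor, was at 46.5, 52.3 and 53.7 CPM in LSK of F1-P, 154, 73.8 and 76.7 in F1-L, 65, 136 and 74.4 in B6-Y, and 79.8, 58.6 and 96.9 in B6-O. As with Csf3r, the F1-P samples were the lowest and overlapped no other LSK group. In CMP it was at 25.3, 80.2 and 95 CPM in F1-P and 38.7, 22.8 and 43.1 in F1-L. Il3ra, the alpha chain of the IL-3 receptor, was the most even member, at 39.4, 37.7 and 38.4 CPM in LSK of F1-P, 44.9, 34.6 and 41.8 in F1-L, 36.2, 34.1 and 47.3 in B6-Y, and 36.8, 30.8 and 59.5 in B6-O. All 4 LSK groups overlapped for Il3ra. In CMP it was at 16.7, 23.4 and 37.8 CPM in F1-P and 27.9, 17.1 and 29.2 in F1-L.

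Csf2rb, the common beta chain, was at 62.9, 108 and 124 CPM in LSK of F1-P, 111, 89.8 and 140 in F1-L, 78.7, 86.4 and 58.5 in B6-Y, and 49.9, 52.3 and 57.2 in B6-O. The B6-O samples were the lowest of the LSK and overlapped no other group. Csf2rb2, the IL-3 beta chain, was at 10.5, 12.4 and 18.9 CPM in LSK of F1-P, 28, 18.1 and 43.5 in F1-L, 36.8, 37.6 and 30.1 in B6-Y, and 13.5, 15.2 and 20.1 in B6-O. Here F1-P and B6-O were low and B6-Y was high, which is another order than that of Csf2rb. In CMP, Csf2rb was at 20.6, 54.3 and 93.2 CPM in F1-P and 67, 20.3 and 67.4 in F1-L, and Csf2rb2 at 3.41, 11.8 and 17.4 in F1-P and 18, 4.18 and 16.9 in F1-L. Summed, the beta chains were at 73.4, 120 and 143 CPM in LSK of F1-P, 139, 108 and 184 in F1-L, 115, 124 and 88.6 in B6-Y, and 63.4, 67.5 and 77.3 in B6-O. B6-O was again the lowest group, though its highest sample passed the lowest of F1-P.

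Il6ra, the IL-6 binding chain, was at 39.5, 59.8 and 75.7 CPM in LSK of F1-P, 104, 59.5 and 95 in F1-L, 66.6, 69 and 53.5 in B6-Y, and 53.1, 46.9 and 51.8 in B6-O. B6-O lay below B6-Y and F1-L, while F1-P spanned the range of the C57BL/6 groups. Il6st, the gp130 gene, was at 154, 195 and 165 CPM in LSK of F1-P, 135, 105 and 150 in F1-L, 114, 100 and 82.1 in B6-Y, and 89.2, 97.5 and 53.2 in B6-O. It was the member for which F1-P was the highest group, above every other LSK sample. In CMP, Il6ra was at 40.8, 92.6 and 131 CPM in F1-P and 63.4, 33.1 and 74.6 in F1-L, and Il6st at 55.4, 77.3 and 138 in F1-P and 102, 44.7 and 111 in F1-L.

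**Figure D1:**
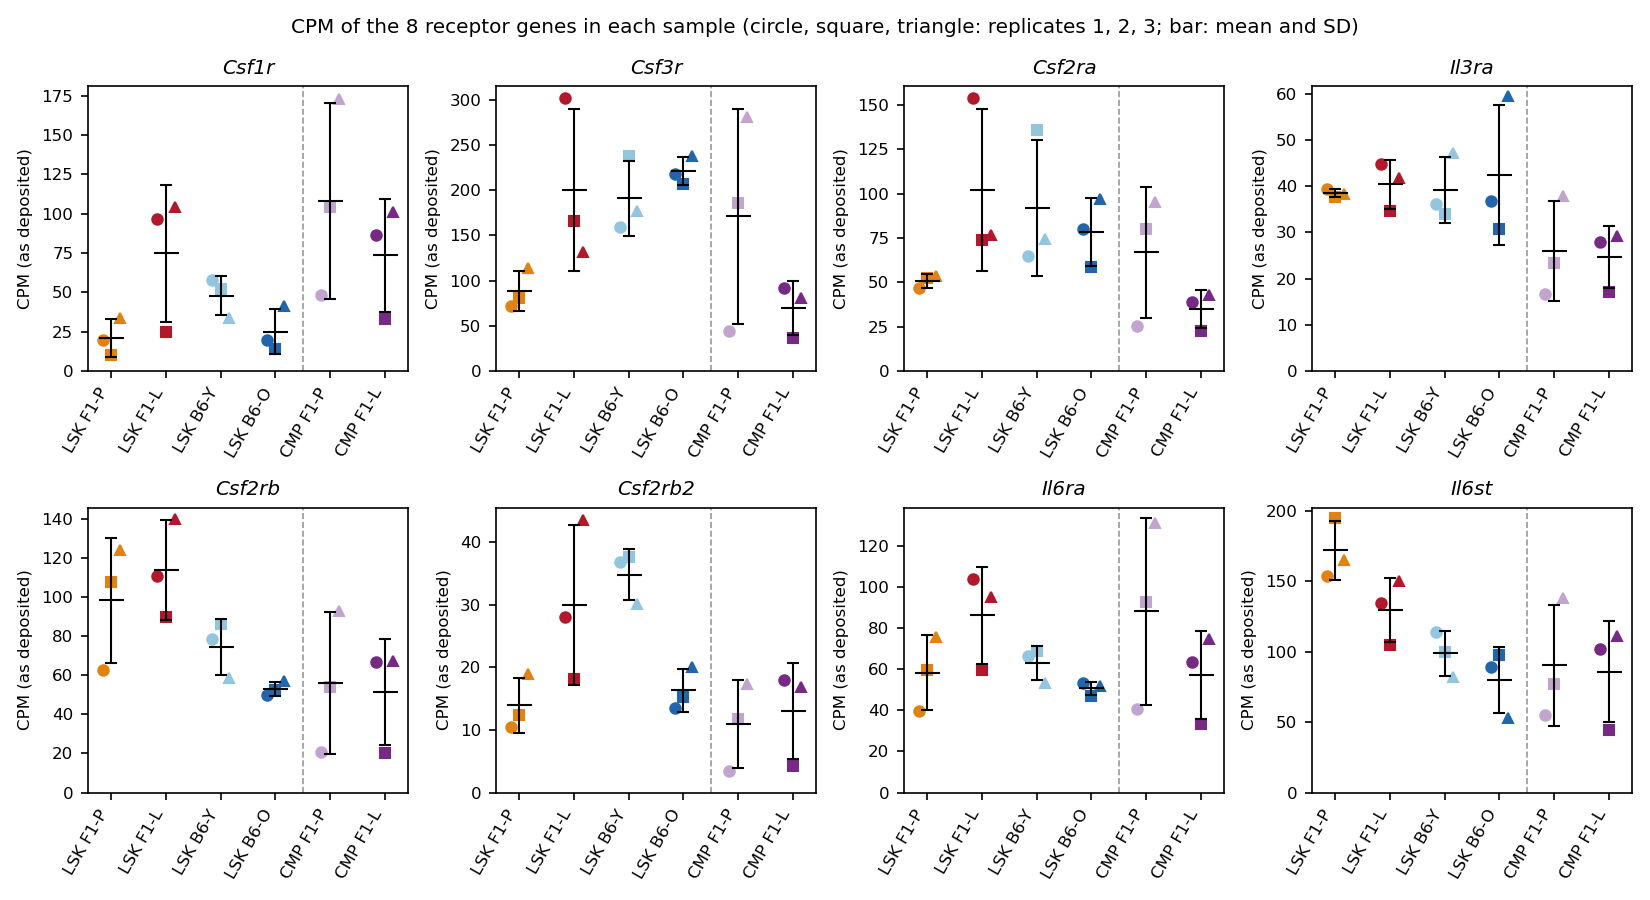
CPM of each member by sample, with 1 panel per gene and the LSK and CMP groups on the horizontal axis, each point 1 sample (circle, square and triangle for replicates 1, 2 and 3) and the bars the group mean and SD. Csf3r and Csf2ra are lowest in LSK of F1-P (71.9 to 114 and 46.5 to 53.7 CPM), Il6st is highest there (154 to 195 CPM), and Il3ra overlaps between all LSK groups.

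Levels of different genes were compared per length, as CPM per kilobase (kb) of exon. Csf3r had the highest mean in every group, from 24.6 ± 6.13 CPM per kb (SD, n = 3) in LSK of F1-P to 61.3 ± 4.24 in B6-O. Csf2ra came next in each LSK group, at 17.7 ± 1.33 CPM per kb in F1-P, 35.4 ± 15.9 in F1-L, 32 ± 13.4 in B6-Y and 27.3 ± 6.69 in B6-O. Csf3r overlapped Csf2ra in F1-L and B6-Y and not in F1-P or B6-O, and Csf2ra overlapped the gene after it only in F1-P. In F1-P the order went on with Il6st at 15.5 ± 1.9, Csf2rb at 13.5 ± 4.38 and Il3ra at 13 ± 0.298 CPM per kb, with neighbours overlapping. Below Il3ra, and with no overlap with it, came Il6ra at 6.75 ± 2.1, Csf1r at 3.66 ± 2.06 and Csf2rb2 at 2.94 ± 0.927. Among these, neighbours overlapped again.

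In the other LSK groups the 6 members after Csf2ra lay between 3.43 and 15.6 CPM per kb on average, and neighbours overlapped except for Il3ra (14.3 ± 5.11) and Csf2rb in B6-O. In CMP of F1-P the order was Csf3r (47.3 ± 32.9 CPM per kb), Csf2ra (23.3) and Csf1r (18.8 ± 10.8), with all neighbours overlapping. In CMP of F1-L, Csf3r (19.3 ± 8.15) was followed by Csf1r (12.7) and Csf2ra (12.1), and only Csf2rb2, at 2.75 CPM per kb, was apart from the gene above it. The LSK and CMP tables were scaled separately, so these orders hold within a table.

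**Figure D2:**
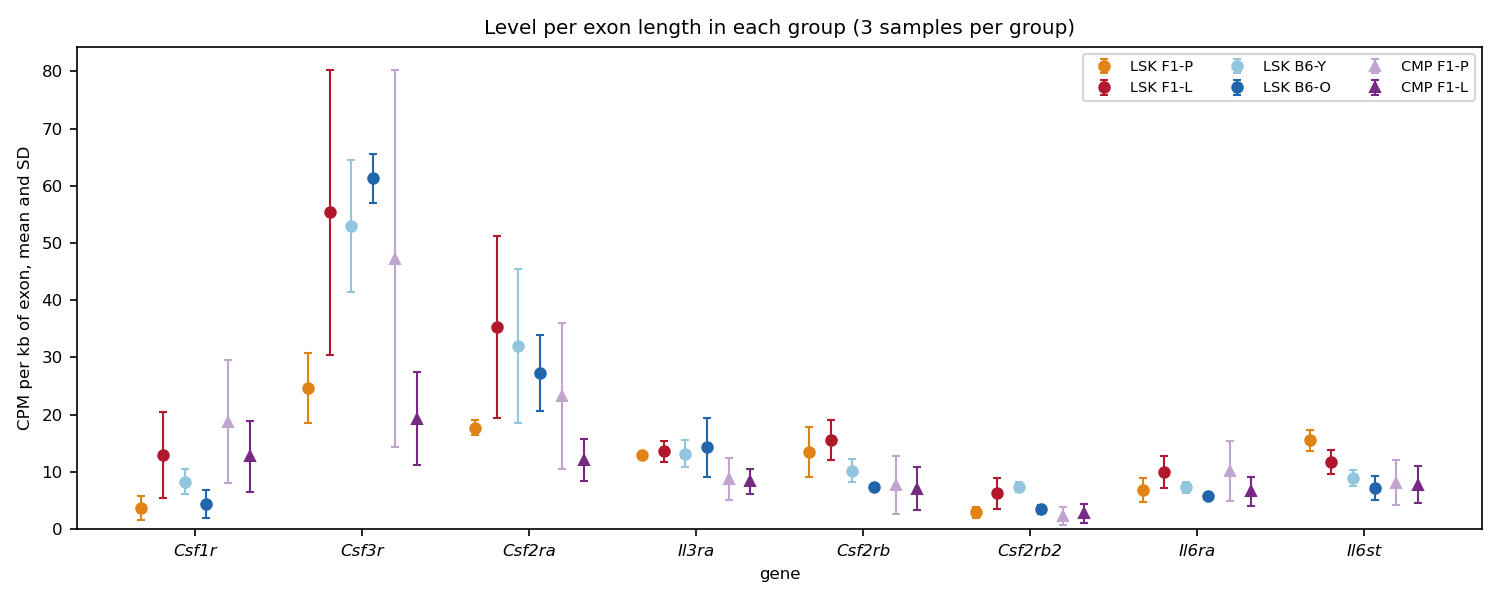
Mean CPM per kb of exon of each member in the 4 LSK groups (circles) and 2 CMP groups (triangles), with the SD over 3 samples as the error bar. Csf3r has the highest mean in every group, and Csf2rb2 is the lowest in 5 of the 6, with Il6ra the lowest in LSK of B6-Y.

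Ratios between the chains of a receptor were taken within each sample. The percentage of the Csf2rb and Csf2rb2 CPM that fell on Csf2rb2 was 14.3, 10.3 and 13.2 in LSK of F1-P, 20.1, 16.7 and 23.7 in F1-L, 31.8, 30.3 and 33.9 in B6-Y, and 21.2, 22.5 and 26 in B6-O. F1-P was the lowest group and B6-Y the highest, with no overlap of either with any other LSK group, and F1-L overlapped B6-O. In CMP it was 14.2, 17.8 and 15.8 percent in F1-P and 21.1, 17.1 and 20.1 in F1-L. Per kb, Csf2ra over Csf2rb was 1.09 to 1.87 in F1-P, 1.39 to 3.52 in F1-L, 2.09 to 3.99 in B6-Y and 2.84 to 4.29 in B6-O, so F1-P lay below both C57BL/6 groups. Il3ra over Csf2rb was 0.756 to 1.54 in F1-P, 0.73 to 0.992 in F1-L, 0.968 to 1.98 in B6-Y and 1.45 to 2.55 in B6-O. Il6ra over Il6st was 0.329 to 0.588 in F1-P, below all other LSK samples, which ran from 0.617 to 1.25.

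**Figure D3:**
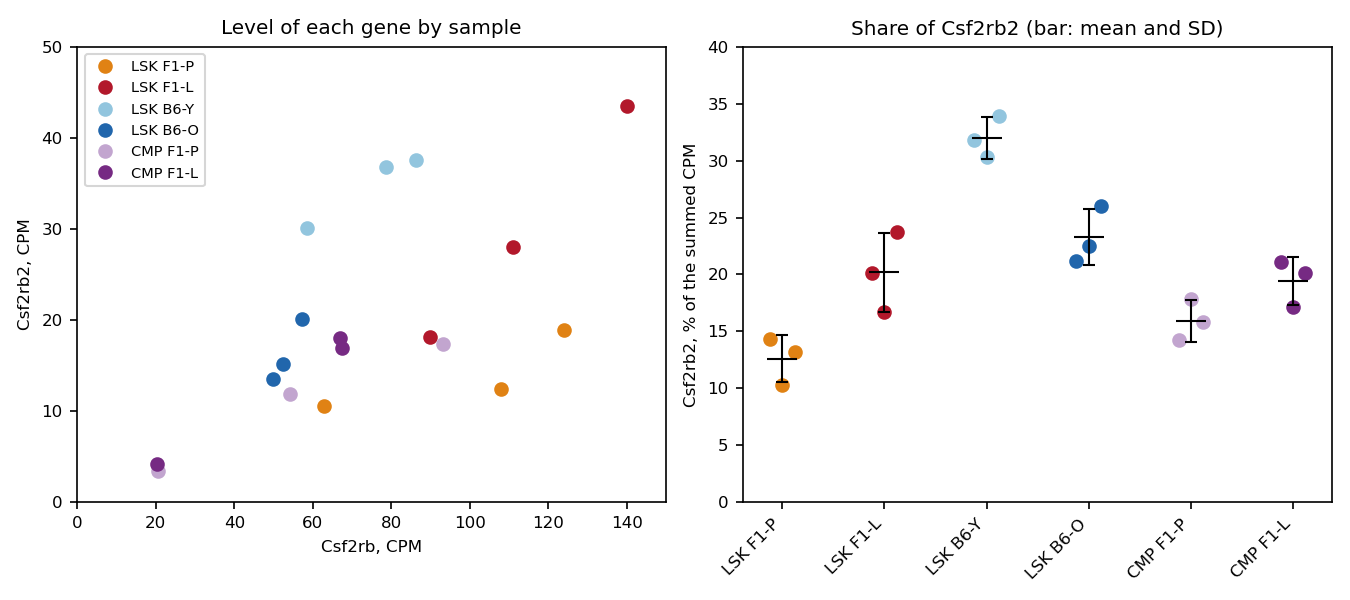
Left, Csf2rb2 CPM against Csf2rb CPM; right, the percentage of their summed CPM on Csf2rb2 by group, with bars for the mean and SD; each point is 1 sample. The percentage runs from 10.3 to 14.3 in LSK of F1-P and from 30.3 to 33.9 in B6-Y, with F1-L and B6-O between them.

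The first comparison asked how LSK of lupus mice differ from those of prediseased mice. Higher means in F1-L were seen for 7 of 8 members and a lower mean for Il6st, and no member passed the test. Differences are given on the scale of log2(CPM + 1), F1-L minus F1-P, with 95% intervals and limma's p adjusted over 14332 genes. Csf3r differed by 1.10 [0.35, 1.84] (adjusted p = 0.234) with means of 200 ± 89.8 and 88.9 ± 22.1 CPM (SD, n = 3), and Csf2ra by 0.90 [0.25, 1.55] (adjusted p = 0.254) with 102 ± 45.6 and 50.8 ± 3.83 CPM. For both, all 3 F1-L samples lay above all F1-P samples. Csf1r had the largest difference, 1.68 [0.22, 3.15] (adjusted p = 0.324), with 74.9 ± 43.6 against 21.1 ± 11.9 CPM, and its groups overlapped through 1 F1-L sample. Csf2rb2 differed by 1.00 [0.20, 1.80] (adjusted p = 0.293), while Csf2rb differed by 0.24 [-0.41, 0.89] and their sum by 0.37 [-0.30, 1.04].

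Il6st was lower in all 3 F1-L samples, by -0.40 [-0.78, -0.03] (adjusted p = 0.353), with means of 130 ± 22.7 and 172 ± 21.1 CPM. The 6 plasma cell genes were also lower, with a median difference of -0.93, and 0 passed limma's test. Their sums did not overlap, as given above. Over the 12 LSK samples, Pearson's r with this sum (log2 scale) was 0.67 for Il6st, 0.75 for Csf2rb and -0.60 to 0.35 for the other members. The part of plasma cell RNA in the Il6st difference was not tested. Il6ra differed by 0.56 [-0.11, 1.24]. For Il3ra the difference was 0.06, and its interval of -0.22 to 0.35 was the narrowest of the members.

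A gene was called where its adjusted p was 0.05 or less and its fold change exceeded 1.5. By limma 0 of 8 members were called, against 0.0279% of all genes. At an unadjusted p below 0.05, 5 members passed (12.8% of all genes), 4 of them higher (8.58%) and Il6st lower (4.19%). The groups did not overlap for 3 members (17.7% of all genes), Csf3r and Csf2ra higher (10.4%) and Il6st lower (7.29%). edgeR's quasi-likelihood test called 0 (0.0209% of all genes), its likelihood ratio test 2, Csf3r and Csf2ra (4.58%), and DESeq2 3, these and Csf2rb2 (5.12%). The median difference was 0.73 over the members and -0.01 over all genes tested.

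The neutrophil genes differed between the same groups: of the 11, 10 would have passed the filter through the F1-P samples alone, and these 10 were higher at an unadjusted p below 0.05 with a median difference of 3.00 and 0 called by limma. Without the sample of each group that was highest in these genes (F1-L replicate 1 and F1-P replicate 3), Csf3r differed by 0.95, Csf2ra by 0.60, Csf1r by 1.78 and Csf2rb2 by 1.23, and 0 members were called. Over the 6 NZBW/F1 LSK samples, the order of Csf3r was also the order of the summed neutrophil genes. The fit without the highest samples left F1-L at 4889 and 1979 CPM of these genes and F1-P at 300 and 524. As the groups still differed in neutrophil RNA, that fit cannot separate its part. Of 7 granulocyte-monocyte progenitor genes, 6 were higher in F1-L, with a median difference of 1.70 and 0 called by limma. Their sums overlapped, at 409 to 1827 CPM in F1-P and 736 to 2251 in F1-L. Over the 12 LSK samples, Pearson's r with this sum (log2 scale) was 0.80 for Csf1r, 0.76 for Il6ra and 0.08 to 0.60 for the other members. The part of neutrophil and progenitor RNA in these differences was not tested.

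**Figure D4:**
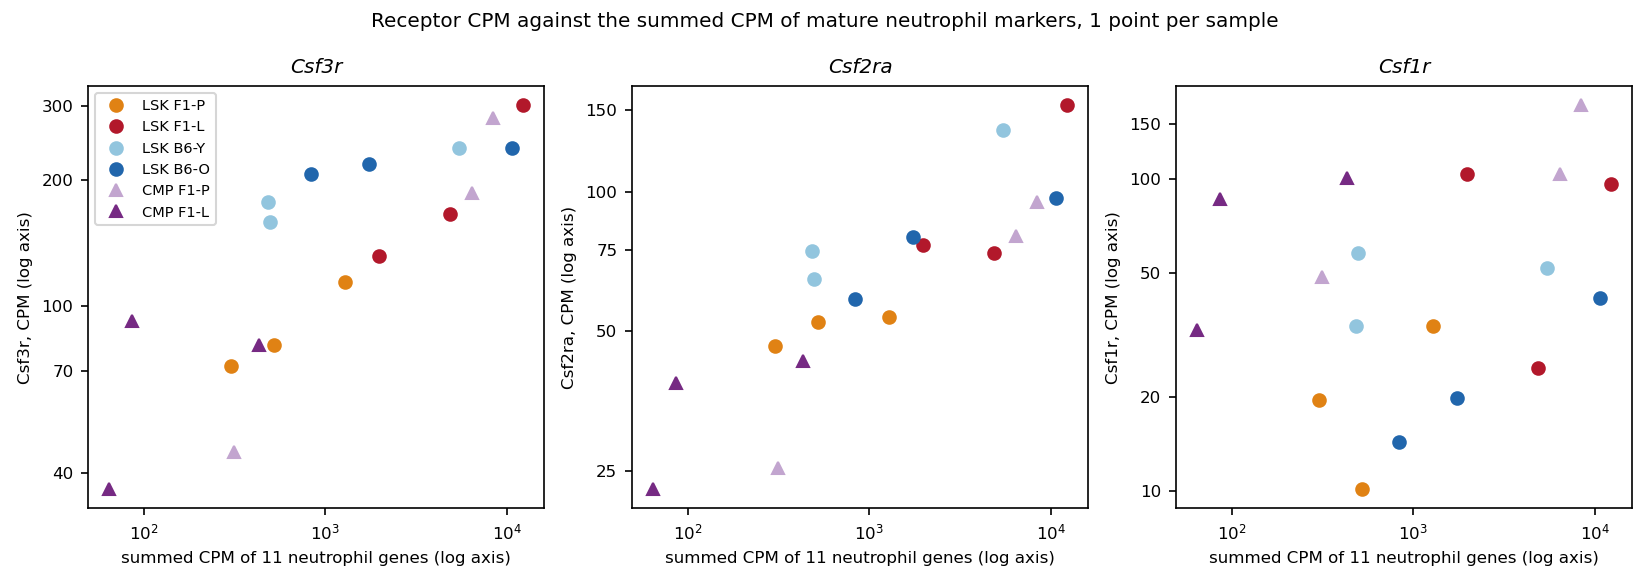
CPM of Csf3r, Csf2ra and Csf1r, 1 panel each, against the summed CPM of 11 mature neutrophil genes (log axes), each point 1 sample coloured by group, circles for LSK and triangles for CMP. Over the 12 LSK samples, Pearson's r on the log2(CPM + 1) scale is 0.72 for Csf3r, 0.83 for Csf2ra and 0.50 for Csf1r. In each LSK group the sample with the most neutrophil gene RNA also holds the most Csf3r and Csf2ra. The B6-O samples hold 207 to 238 CPM of Csf3r over a range of 830 to 10700 CPM of neutrophil genes. In CMP the 2 F1-P samples with the most Csf3r (186 and 281 CPM) are the 2 with the most neutrophil gene RNA (6428 and 8406 CPM).

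The C57BL/6 groups were compared to see the difference between the same ages without disease. A lower mean in B6-O was seen for 6 of 8 members, among which Csf2rb2 stood out, at 16.3 ± 3.45 against 34.8 ± 4.12 CPM (SD, n = 3). Its difference of B6-O minus B6-Y was -1.06 [-1.53, -0.60] with all 3 B6-O samples below all B6-Y samples, and it did not pass limma's test over 14005 genes (adjusted p = 0.218). Csf2rb was also lower without overlap, by -0.46 [-0.88, -0.05] (adjusted p = 0.655), with 53.1 ± 3.71 and 74.5 ± 14.4 CPM, and the sum of the pair by -0.64 [-1.04, -0.24] (adjusted p = 0.385).

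Csf1r was at 25.1 ± 14.3 CPM in B6-O and 47.9 ± 12.6 in B6-Y, a difference of -1.01 [-1.91, -0.10] (adjusted p = 0.662), and overlapped. Il6ra differed by -0.31 [-0.66, 0.05] without overlap, Il6st by -0.33 [-0.92, 0.25] and Csf2ra by -0.18 [-0.89, 0.54]. Csf3r differed by 0.23 [-0.21, 0.66] and Il3ra by 0.07 [-0.54, 0.68], the members with a higher mean in B6-O.

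By limma 0 members were called, as were 0% of all genes, and 3 members, Csf1r, Csf2rb and Csf2rb2, were lower at an unadjusted p below 0.05 (3.37% of all genes lower and 6.62% in either direction). The 3 members without overlap, Il6ra, Csf2rb and Csf2rb2, stand against 5.57% of all genes lower and 11.3% in either direction. The quasi-likelihood test called 0 members (0% of all genes), and the likelihood ratio test (0.814%) and DESeq2 (1.48%) each called Csf2rb2, with adjusted p-values of 0.00741 and 0.000289. Without B6-O replicate 3, which held the most neutrophil RNA of its group, Csf2rb2 differed by -1.22 and passed limma's test (adjusted p = 0.0482). Without both this library and B6-Y replicate 2, the highest of the other group, it differed by -1.16 and did not pass (adjusted p = 0.0627). The members' median was -0.32 and that of all genes 0.02.

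Whether the change in NZBW/F1 differed from the one in C57BL/6 was tested by the interaction of strain and age over all 12 LSK samples, (F1-L minus F1-P) minus (B6-O minus B6-Y). Csf2rb2 had the clearest interaction of the members, 2.06 [1.15, 2.97], the sum of a higher level in F1-L than F1-P and a lower one in B6-O than B6-Y. It did not pass limma's test over 15084 genes (adjusted p = 0.559), nor the quasi-likelihood test (adjusted p = 0.845), and it passed the likelihood ratio test (2.20, adjusted p = 0.00845) and DESeq2 (2.21, adjusted p = 0.00405). Csf1r had an interaction of 2.69 [0.93, 4.45], Csf2ra of 1.08 [0.09, 2.06], Csf3r of 0.87 [0.02, 1.73] and Il6ra of 0.87 [0.12, 1.62], each with an adjusted p of 0.976.

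Those of Csf2rb (0.70 [-0.06, 1.46]), Il3ra (-0.01 [-0.68, 0.66]) and Il6st (-0.07 [-0.76, 0.62]) had intervals that held 0, and the sum of the beta chains had 1.01 [0.24, 1.78] (adjusted p = 0.977). By limma 0 members were called (0% of all genes), and 5 were higher at an unadjusted p below 0.05 (2.86% of all genes higher and 3.92% in either direction). The quasi-likelihood test called 0 members (0% of all genes), the likelihood ratio test 1 (0.0663%) and DESeq2 1 (0.192%). The Il6st difference between F1-L and F1-P was thus not shown to differ from that between the C57BL/6 ages.

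Lupus LSK were then set against those of C57BL/6 of the same age. Csf2rb, the common beta chain, rose 2.14-fold, from 53.1 ± 3.71 CPM in B6-O to 114 ± 25.4 in F1-L (SD, n = 3), a difference of 1.06 [0.64, 1.48] with a standard error of 0.178 (limma, adjusted p = 0.0102). All 3 F1-L samples lay above all B6-O samples. It was the only member of 8 called, against 7.84% of all genes called higher and 11.6% in either direction. The sum of Csf2rb and Csf2rb2 rose 2.07-fold, by 1.01 [0.53, 1.49] (adjusted p = 0.0219), so the sum was called as well. Leaving out B6-O replicate 1, F1-L replicate 1 or F1-L replicate 3 ended the call of Csf2rb, with adjusted p-values of 0.0526, 0.0582 and 0.0504 and differences of 1.02, 1.07 and 0.90. The call of the sum was also lost without B6-O replicate 2 (adjusted p = 0.0811), besides the same 3 (0.0876, 0.0987 and 0.0771).

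Il6ra and Il6st were higher in all F1-L samples than in any B6-O sample and did not pass, with differences of 0.72 [0.21, 1.23] (adjusted p = 0.0785) and 0.73 [0.13, 1.32] (adjusted p = 0.114). Csf1r differed by 1.43 [0.01, 2.85] (adjusted p = 0.179) and Csf2rb2 by 0.77 [0.02, 1.53] (adjusted p = 0.175), both with overlap. The differences of Csf2ra (0.31 [-0.44, 1.06]), Csf3r (-0.23 [-0.92, 0.45]) and Il3ra (-0.02 [-0.61, 0.57]) had intervals that held 0. At an unadjusted p below 0.05, 5 members were higher (14.8% of all genes higher and 27.5% in either direction), and 3 did not overlap (17.5% and 37.4%). The quasi-likelihood test called Csf2rb (10.8% of all genes), the likelihood ratio test Csf2rb and Il6ra (15.2%), and DESeq2 these and Csf1r (15.9%).

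The median was 0.72 over the members and -0.03 over all genes. The monocyte and macrophage genes also stood higher in F1-L, with 3 called of the 6 that would have passed the filter through the B6-O samples alone and a median of 1.93 over these, and the summed levels of all 12, 614 to 969 and 100 to 350 CPM, did not overlap. The plasma cell genes did too, with 5 of 5 such genes called, and so did the T and NK cell genes, with 3 of 5. Of 9 genes of the stem and progenitor gate, Cd34, Hlf and Meis1 were called lower and Ly6a higher. All 7 granulocyte-monocyte progenitor genes were higher, with a median of 1.35 and 0 called by limma. The part of all these cell type genes in the receptor differences was not tested. Without the libraries highest in neutrophil genes (F1-L replicate 1 and B6-O replicate 3), Csf2rb remained called, at 1.12 (adjusted p = 0.022). The samples left still differed in the summed neutrophil genes, at 4889 and 1979 CPM in F1-L and 1733 and 830 in B6-O. In the same fit Csf3r differed by -0.52 (adjusted p = 0.0455), a fold change below the threshold, and was not called.

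The remaining LSK comparison was of prediseased NZBW/F1 mice with young C57BL/6 mice. It shares the F1-P samples with the first comparison and the B6-Y samples with the age comparison. One member rose in F1-P and 2 fell. Il6st rose 1.74-fold, from 98.8 ± 16.1 CPM in B6-Y to 172 ± 21.1 in F1-P (SD, n = 3), a difference of 0.80 [0.43, 1.17] with a standard error of 0.161 (limma, adjusted p = 0.0128). Csf3r fell from 191 ± 41.7 to 88.9 ± 22.1 CPM, by -1.10 [-1.60, -0.60] (standard error 0.216, adjusted p = 0.0112), so that B6-Y held 2.15 times the level of F1-P. Csf2rb2 fell from 34.8 ± 4.12 to 13.9 ± 4.4 CPM, by -1.29 [-1.81, -0.77] (standard error 0.224, adjusted p = 0.00674), a level 2.5 times as high in B6-Y. In each case all 3 samples of one group lay beyond all 3 of the other. The summed neutrophil genes, at 300, 524 and 1275 CPM in F1-P and 498, 5429 and 485 in B6-Y, overlapped. All 10 of these genes that passed the filter were lower in F1-P, with a median difference of -0.73 and 0 called by limma.

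The 3 called members stand against 16.2% of all genes called, 10% higher and 6.18% lower. Leaving out F1-P replicate 2 ended the calls of Il6st (0.70, adjusted p = 0.0669) and Csf3r (-1.05, adjusted p = 0.0543), and Csf2rb2 stayed called without any 1 sample, at -1.52 to -1.12. Csf2rb, the near copy of Csf2rb2, differed by 0.36 [-0.25, 0.97] (adjusted p = 0.41), and the sum of the pair by -0.00 [-0.58, 0.58] (adjusted p = 0.999). A fall of Csf2rb2 is therefore not seen in the summed beta chains, and whether reads of NZB and NZW alleles are split between the copies as C57BL/6 reads are was not tested.

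Csf1r (-1.26 [-2.18, -0.34], adjusted p = 0.0673) and Csf2ra (-0.77 [-1.36, -0.17], adjusted p = 0.0824) were lower in F1-P without passing, and the groups of Csf1r met at 33.8 CPM. Il3ra (-0.01 [-0.37, 0.34]) and Il6ra (-0.15 [-0.69, 0.39]) had intervals that held 0. At an unadjusted p below 0.05, 5 members passed (31.3% of all genes), 1 higher (16.2%) and 4 lower (15.1%), and the same 5 did not overlap (35.5%; 17.4% higher and 18.1% lower). The quasi-likelihood test called 3 members (15.9% of all genes), and the likelihood ratio test (19.1%) and DESeq2 (19.6%) each called 5. The members' median was -0.46 against -0.04 for all genes. Plasma cell RNA moved with this comparison, with 6 of 6 genes called higher and summed levels of 14296 to 36851 CPM in F1-P and 732 to 1886 in B6-Y. The T and NK cell genes summed to 160 to 196 CPM in F1-P and 54.1 to 85.2 in B6-Y, with 3 called higher of the 6 that would have passed the filter through B6-Y alone. Of the 9 genes of the stem and progenitor gate, Cd34, Hlf, Meis1 and Flt3 were called lower and Ly6a higher, and the megakaryocyte genes Itga2b and Gp9 were called lower, with summed levels of 32 to 49.8 CPM in F1-P and 97.8 to 142 in B6-Y. Of the 12 monocyte and macrophage genes, Ly6c2 and Ctss were called higher in F1-P and Cx3cr1 lower, with a median of -0.28 over the list. The part of all these genes in the receptor differences was not tested. Without the libraries highest in neutrophil genes (F1-P replicate 3 and B6-Y replicate 2), Csf3r differed by -1.13 (adjusted p = 0.0136) and Csf2rb2 by -1.46 (adjusted p = 0.00832). In the same fit Il6st lost its call (0.84, adjusted p = 0.0829) and Csf1r gained one (-1.59, adjusted p = 0.0292).

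**Figure D5:**
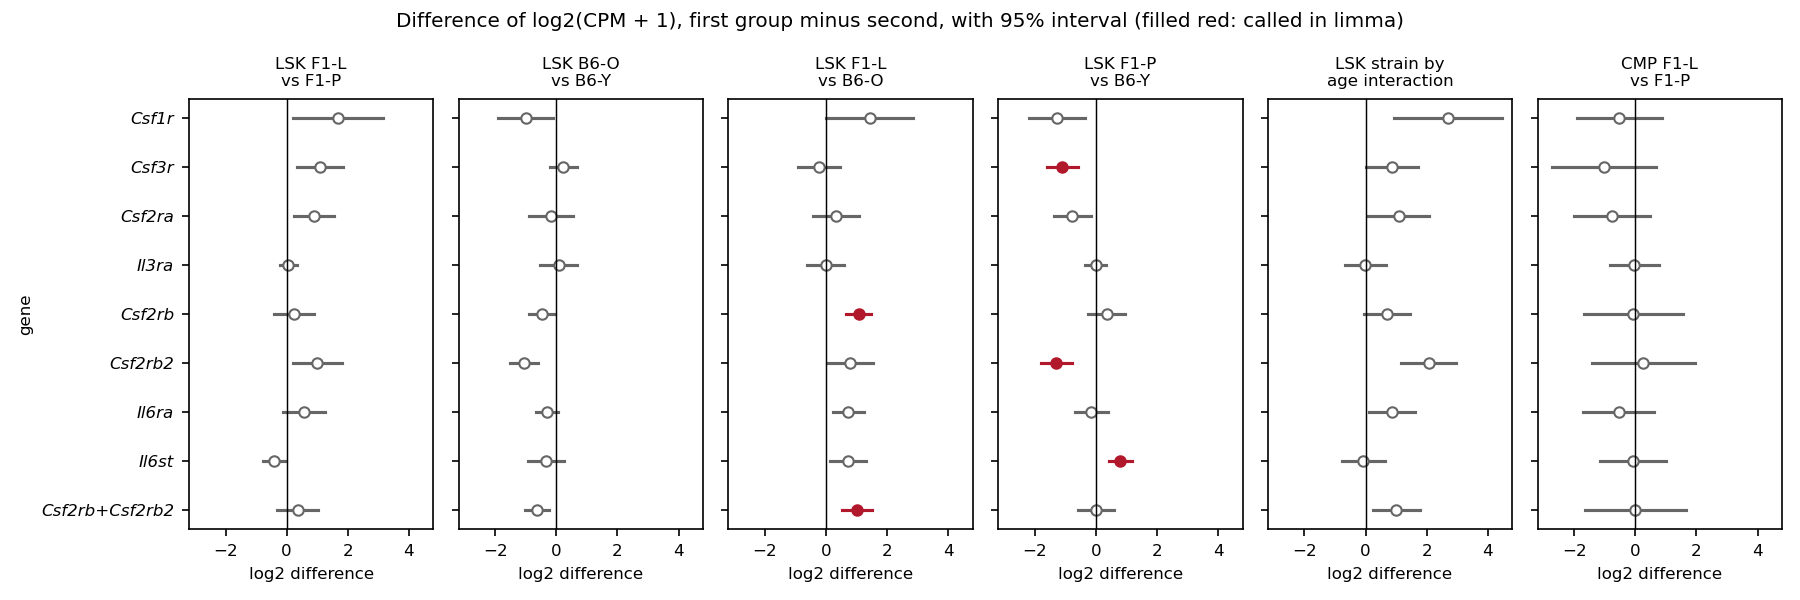
Difference on the log2(CPM + 1) scale of each member and of the Csf2rb and Csf2rb2 sum in the 6 comparisons, with limma's 95% intervals, and filled red points where the member was called. The called differences are Csf2rb and the sum in F1-L against B6-O (1.06 and 1.01) and Il6st (0.80), Csf3r (-1.10) and Csf2rb2 (-1.29) in F1-P against B6-Y.

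In CMP, lupus and prediseased mice were compared at the next stage. No member differed beyond the spread, and the groups overlapped for all 8 (16% of all genes did not overlap). The largest difference of F1-L minus F1-P was that of Csf3r, -1.03 [-2.74, 0.69] with an adjusted p of 0.663, with means of 69.8 ± 29.4 and 171 ± 119 CPM (SD, n = 3). Csf2ra differed by -0.77 [-2.02, 0.49] (adjusted p = 0.656), Il6ra by -0.55 and Csf1r by -0.52. Csf2rb, Il3ra, Il6st and the sum of the beta chains lay between -0.08 and 0, and Csf2rb2 at 0.25. These intervals are wide, and smaller differences were not detectable with this spread.

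For every member the lowest F1-P value was in replicate 1 and the lowest F1-L value in replicate 2. By limma 0 members were called (0.00774% of 12926 genes), 0 passed at an unadjusted p below 0.05 (9.8%), and the quasi-likelihood test (0.00774%), the likelihood ratio test (2.38%) and DESeq2 (2.72%) each called 0. Among neutrophil genes, 8 would have passed the filter through the F1-L samples alone, and these 8 were lower in F1-L at an unadjusted p below 0.05, with a median of -4.10 and 0 called. Without the 2 F1-P libraries above 1000 CPM of these genes, replicates 2 and 3, the sign turned for 7 members: Csf3r differed by 0.53, Csf2ra by 0.40, Csf1r by 0.44, Csf2rb by 1.10, Il6ra by 0.40, Il6st by 0.52 and Il3ra by 0.51, with adjusted p-values of 0.878 to 0.899 and a single F1-P sample, assumed to vary like the F1-L samples. A direction of the receptors in CMP was thus not resolved by these samples.

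Other genes of the pathway were taken from 6 lists of 67 genes in all: related receptors, ligands, signal transducers, inhibitors, STAT targets and lineage transcription factors, of which 56 to 58 passed the filter in a comparison. Counts are of the genes that would have passed through the group with the lower mean alone, which leaves out Csf2 or Il5ra in the LSK comparisons and Lifr, Lif and Socs1 in CMP. In F1-P against B6-Y, 15 of 57 were called by limma, 7 higher and 8 lower, against 16.2% of all genes called, 10% higher and 6.18% lower. In F1-L against B6-O it was 4 of 56, 3 of them higher, a smaller share than the 11.6% of all genes (7.84% higher). In the other comparisons limma called 0. At an unadjusted p below 0.05, 19 of 57 passed in F1-L against F1-P (12.8% of all genes), 11 of 56 in B6-O against B6-Y (6.62%) and 10 of 53 in CMP (9.8%), and in the interaction, counted over all 58 tested, 10 passed (3.92%). The quasi-likelihood test called 0 in these 4. The likelihood ratio test called 8 in F1-L against F1-P (4.58% of all genes), 0 in B6-O against B6-Y (0.814%), 3 in CMP (2.38%) and 1 in the interaction (0.0663%). DESeq2 called 9, 3, 4 and 1 in the same order, against 5.12%, 1.48%, 2.72% and 0.192%.

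Among receptors that share a chain with the members, Il5ra, which pairs with the common beta chain to bind IL-5, rose in F1-P against B6-Y. It was at 26.3 ± 17.8 CPM in F1-P and 4.72 ± 3.24 in B6-Y (difference 2.12, adjusted p = 0.0484). The groups overlapped, as the lowest F1-P sample was at 8.04 CPM and the highest B6-Y sample at 8.41. Levels were 25.5 ± 5.51 CPM in F1-L and 2.03 ± 1.84 in B6-O, where it passed the filter only through F1-L, so the test there is not used. IL-5 receptors also mark plasma and B-1 lineage cells, eosinophils and basophils, and the plasma cell RNA given above moved the same way. Lifr, which pairs with gp130, fell in F1-P (-1.16, adjusted p = 0.0254), as did Flt3, the FLT3 ligand receptor (-0.92, adjusted p = 0.0492). Il11ra1, another partner of gp130, fell in F1-L against B6-O (-0.81, adjusted p = 0.0475).

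Of the ligands, 4 or 5 of 13 passed the filter, and Csf2, which encodes GM-CSF, was at 2.14 ± 1.05 CPM in F1-P and 0.429 ± 0.317 in B6-Y. It passed only through F1-P, so its test is not used. Of the 15 transducers, Gab2, an adaptor of the beta chain, fell in F1-P (-1.42, adjusted p = 0.00391) and Tyk2, a JAK family kinase, rose there (0.86, adjusted p = 0.0406) and in F1-L against B6-O (0.60, adjusted p = 0.0315). The feedback inhibitors Socs1 and Socs2 rose in NZBW/F1 at both ages, Socs1 by 1.01 (adjusted p = 0.0397) and 1.07 (adjusted p = 0.0105), and Socs2 by 1.92 (adjusted p = 0.0111) and 1.37 (adjusted p = 0.0199), and the other 8 inhibitors were not called. Socs2 was at 103, 60.1 and 31.4 CPM in F1-P, 14.9, 30.4 and 23.4 in F1-L, and 6.85 to 17 CPM in the C57BL/6 LSK samples, so F1-P exceeded F1-L in every sample without a call by limma (-1.36, adjusted p = 0.275).

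Of the 10 STAT targets, Bcl2l1, which encodes the survival protein BCL-XL, and Ccnd2, which encodes cyclin D2, rose in F1-P against B6-Y (0.74, adjusted p = 0.0218, and 0.91, adjusted p = 0.00303), and Ccnd1 fell (-0.94, adjusted p = 0.0154). Of the 9 lineage transcription factors, 4 fell and 1 rose in the same comparison, in which 6.18% of all genes were called lower and 10% higher. Spi1, which encodes the myeloid factor PU.1, fell from 115 ± 5.82 to 59.9 ± 6.86 CPM (-0.93, adjusted p = 0.00256), Cebpa from 50.2 ± 9.03 to 25.3 ± 8.79 (-0.99, adjusted p = 0.0306), Irf8 by -0.82 (adjusted p = 0.00604) and Gata2 by -0.99 (adjusted p = 0.019), while Klf4 rose by 0.93 (adjusted p = 0.0459).

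In F1-L against F1-P Cebpe, a factor of late granulocytes, had the largest difference of the lists, 2.53 (adjusted p = 0.21), without a call by limma. Spi1, Gata2, Gata1, Cebpa and Cebpe, 5 of the 9 factors, were called higher there both by DESeq2 (5.12% of all genes in either direction) and by the likelihood ratio test (4.58%), and are named after their values were seen. As these lists were chosen with earlier results of these samples known, their counts are a description.

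For each member, the 3 genes with the most similar pattern were sought among 11115 genes by Pearson's r of log2(CPM + 1) over the 12 LSK samples, which span both strains and both ages, with r over the 6 CMP samples beside it. Csf3r was closest to Padi4 (0.97, CMP 0.99), Slc2a3 (0.94, CMP 0.73) and Trim30b (0.94, CMP 0.98), and Csf2ra to Ncf1 (0.95, CMP 0.97), Lilrb4a (0.95, CMP 0.90) and Pirb (0.94, CMP 0.95). Among the genes closest to Csf1r were Inpp5f (0.93, CMP -0.15) and Cx3cr1 (0.92, CMP 0.98), and Il6ra was closest to Rassf4 (0.93, CMP 0.97), F13a1 (0.90, CMP 0.94) and Zfp948 (0.89, CMP -0.53). For these members, most of the named genes also followed them in CMP, with Inpp5f and Zfp948 as exceptions. Over the 6 CMP samples the members also followed each other, at 0.72 to 0.99, so a high r there is not particular to the named genes.

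Csf2rb was closest to Apba1 (0.92, CMP 0.89), Mrc1 (0.92, CMP 0.57) and Arid3a (0.91, CMP 0.88), and Csf2rb2 to Cyp27a1 (0.89, CMP 0.89), Lifr (0.89, CMP 0.57) and Mpeg1 (0.89, CMP 0.80). The beta chains shared no gene among their 3 closest, and neither did any other pair of members. The r of Csf2rb with Csf2rb2 was 0.39 in LSK and 0.98 in CMP. Il3ra was closest to Tmem189 (0.93, CMP 0.69), Dync1li1 (0.92, CMP -0.80) and Tk2 (0.92, CMP 0.61), and Il6st to Galnt11 (0.97, CMP 0.96), Rcbtb1 (0.97, CMP -0.81) and Arcn1 (0.96, CMP -0.97). Of those 6, 3 had a negative r in CMP.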

How the data were processed

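LSK (12 samples) and CMP (6) were profiled by RNA sequencing, and groups and replicate numbers came from the labels. The authors aligned single-end reads to mm10 (GRCm38) with STAR (2.6 in the submitters' processing notes), counted reads per gene with HTSeq and normalised them in edgeR. The deposited values are a signal, CPM of a library size multiplied by a normalisation factor, which makes samples comparable within a table, and column sums ran from 832403 to 1387186 in LSK and 967456 to 1033223 in CMP. The design had assumed plain CPM. Within a tolerance of 0.01, 100.0% of the values came out as whole reads, and edgeR 4.0.16 and DESeq2 1.42.0 were run on these recovered counts as alternatives.

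The main test was limma 3.58.1 (R 4.3.3; lmFit and eBayes with a trend) on log2(CPM + 1), with genes kept where 3 or more samples of the fit reached a CPM of 1, and p-values adjusted over all of these by the Benjamini-Hochberg method. A gene was called, and is said to rise or fall, where its adjusted p was 0.05 or less and its fold change exceeded 1.5. Each comparison used its 3 + 3 samples, and the interaction all 12 LSK. For the sum, the rows of Csf2rb and Csf2rb2 were replaced by their total. The pseudocount understates the change of low genes. Each sample counted as 1 replicate. Differences between samples of a group exceeded sampling noise in every pair, which does not tell separate mice from pools or repeated preparations. A total of 19770 LSK and 18421 CMP genes were matched to GENCODE M21 by identifier. The step from values to calls was run on simulated counts as a check of the code only. That simulation held no libraries high in neutrophil or plasma cell RNA, so it does not bear on them.

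The members and lists were chosen with earlier results of these data known. All members are named. Of the pathway lists, genes called in any comparison were named, and a gene could be named for the largest difference of its list in a comparison; of other genes, the 3 most alike to each member at a mean CPM of at least 5. Alternatives were the pseudocount, filter, scaling, replicate block, the count tests, the thresholds, 1 fit over all LSK and leaving out each sample. Leaving out libraries high in neutrophil genes was added after seeing the data. Immunoglobulin genes held 16.8 to 36.6% of reads in NZBW/F1 LSK, up to 4.76% in C57BL/6 LSK and up to 0.255% in CMP. Human samples were not analysed here, and some genes that these rules name are not reported here. Sequence steps used Python 3.11.15 with Biopython 1.88.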

Additional observations from a re-analysis of the deposited data

How the results depend on the processing

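Over 1116 alternatives for 54 differences of members and the sum, 1001 kept their direction and their side of the threshold, 44 passed it anew, 10 no longer did and 61 changed sign. The number of members called in F1-L against F1-P was 0, and 2 by the likelihood ratio test, 3 by DESeq2 and 5 at an unadjusted p below 0.05. In B6-O against B6-Y it was 0, and 1, 1 and 3 by these, and 0 to 1 without 1 sample. In F1-L against B6-O it was 1, and 2, 3 and 5, 2 in 1 fit over all 12 LSK (with Il6st, adjusted p = 0.0488) and 0 to 2 without 1 sample. In F1-P against B6-Y it was 3, and 5, 5 and 5, and 1 to 4 without 1 sample. For the interaction it was 0, and 1, 1 and 5. In CMP it was 0 throughout. Samples with the same replicate number did not deviate together in every pair (correlations of -0.45 to 0.62), so the numbers were not taken to pair them; with the replicate number as a block, 2 members were called in F1-L against B6-O (Csf2rb and Csf1r, adjusted p = 0.0389 for Csf1r) and 4 in F1-P against B6-Y (with Csf2ra, adjusted p = 0.0391), and the block changed the number called in no other comparison. Sign changes were of differences near 0 or in CMP, and their cause was not tested. Without the libraries high in neutrophil genes, Il3ra turned to -0.02 in F1-L against F1-P, -0.29 in B6-O against B6-Y, 0.17 in F1-L against B6-O and 0.27 in the interaction, and in CMP Csf1r to 0.44, Csf2ra to 0.40, Csf2rb to 1.10, Csf3r to 0.53, Il3ra to 0.51, Il6ra to 0.40, Il6st to 0.52 and the sum to 1.19. With both scalings by the median of ratios Il3ra turned to 0.00 and 0.01 in F1-L against B6-O and to 0.02 and 0.03 in F1-P against B6-Y, where DESeq2 gave 0.01; the sum there turned to 0.03 and 0.04, 0.05 in both edgeR tests and 0.07 in DESeq2. These scalings moved the median of all genes by -0.02 to 0.03. Without 1 sample, Il3ra ran from -0.02 to 0.17, -0.20 to 0.26, -0.22 to 0.25, -0.10 to 0.13 and, in the interaction, -0.20 to 0.26 in the LSK comparisons as ordered above. Likewise Csf2rb ran from -0.05 to 0.44 in F1-L against F1-P, Csf2ra from -0.38 to 0.14 in B6-O against B6-Y and -0.03 to 0.50 in F1-L against B6-O, Csf3r from -0.57 to 0.02 in the last, Il6ra from -0.36 to 0.10 and the sum from -0.20 to 0.28 in F1-P against B6-Y, and Il6st from -0.33 to 0.10 in the interaction. In CMP, Csf2rb ran from -0.64 to 0.50, Csf2rb2 from -0.35 to 0.86, Il3ra from -0.29 to 0.27, Il6st from -0.37 to 0.33 and the sum from -0.60 to 0.58. Lengths of the longest transcript in place of all exons swapped Il6st with Csf2rb in the order of LSK of F1-P and CMP of F1-L, and Il6ra with Csf2rb in CMP of F1-P. Every member value rested on 71 reads or more, and the part of depth in the spread between samples was not tested.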
